A study of Mus musculus with 9 samples.

Results

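The genes described here are 44 mouse genes of the MYC network and of ribosome biogenesis. They were taken as a list by name, chosen with earlier results of these data known. The list holds Myc, Mycn, Max, Mxd3 and Mxd4, and 39 genes for RNA polymerase I, nucleolar particles, the assembly of both ribosomal subunits and a few metabolic MYC targets. Of these 44, 36 were measured, among 10072 genes measured in the series: 4 of the 5 MYC network genes and 32 of the 39 others. A gene counted as measured when a probe for it had a detection p-value under 0.05 on at least 3 of the 9 arrays, and the probe with the highest mean stood for the gene. RNA was hybridised to Illumina MouseWG-6 v2 bead arrays, which read each gene through short probes on beads. The 3 groups were 3 cell lines from T-cell leukaemias of CD2-Lmo2 mice (lines 3, 175 and 261), 3 samples labelled as Lmo2 transgenic thymus, and 3 samples of wild-type thymus. All 9 samples are labelled C57BL/6, with no age or treatment given. The CD2 promoter drives the transgene in T cells, each line comes from a leukaemia and is represented by 1 array, and the labels do not say whether the thymus samples of a group came from separate animals, so the p-values measure the spread between these arrays.

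MYC is a transcription factor that binds DNA as a dimer with MAX, at E-boxes such as CACGTG, and that is a well-known driver of T-cell leukaemia. MXD proteins compete for MAX and repress the same sites. Among the classic MYC targets are the genes for building ribosomes: RNA polymerase I copies the ribosomal RNA genes, small nucleolar particles modify and cut the transcript, and assembly factors fold it with ribosomal proteins into the small and large subunits.

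Promoters were searched because MYC and MAX bind E-boxes, and the sites found are shown to place the members by that sequence. RefSeq windows (GRCm38.p6) from 250 bases before to 50 bases after a gene's start were held for 37 of the 44 genes. CACGTG, which reads the same on both strands, stood in the windows of 11 of these 37 genes (29.7%), against 11.8% of the 8221 genes tested here that have a window and 8.09% of all 27025 genes with one. Of its 13 sites, 10 lay within 50 bases of the start. The windows end 50 bases after the start, so every site after it falls within that distance by construction. The sites in measured members are printed with up to 10 bases on each side, 5′ to 3′ on the gene's strand, with CACGTG in capitals.
Mxd4 (chr5:34187914-34187939, minus strand): gctgggccacCACGTGctgttgctaa
Nop2 (chr6:125131813-125131838, plus strand): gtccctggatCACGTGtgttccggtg
Utp4 (chr8:106893645-106893670, plus strand): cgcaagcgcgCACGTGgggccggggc
Pes1 (chr11:3963967-3963992, plus strand): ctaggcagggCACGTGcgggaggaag
Mybbp1a (chr11:72441357-72441376, plus strand): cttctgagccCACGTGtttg
Tsr1 (chr11:74898094-74898119, plus strand): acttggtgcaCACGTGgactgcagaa
Nme1 (chr11:93968275-93968300, minus strand): tgcggggaacCACGTGaggccgggga
Nme1 (chr11:93968039-93968064, minus strand): cttgatacgcCACGTGggctcgcctt
Max (chr12:76962236-76962261, minus strand): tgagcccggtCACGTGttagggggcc
Rrn3 (chr16:13780474-13780499, plus strand): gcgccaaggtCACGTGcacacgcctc
Rrn3 (chr16:13780641-13780666, plus strand): acgctctgctCACGTGggccgcgtcc
Wdr43 (chr17:71616222-71616247, plus strand): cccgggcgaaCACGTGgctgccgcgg
Beside Mxd4, they lie in Max itself, the polymerase I initiation factor Rrn3, the small-subunit genes Utp4, Wdr43 and Tsr1, the large-subunit genes Nop2, Pes1 and Mybbp1a, and Nme1. The variant CACGCG, counted on both strands and so also as CGCGTG, stood in 12 of 37 genes (32.4%), against 20.2% of the genes tested and 10.5% of all genes. Sites of these motifs may share bases. CACGCG stood in 10 of the 27 measured genes outside the MYC network that have a window (37.0%), and most of these were not called below. Whether the motif goes with the calls was not tested. Polr1e and Nhp2, the genes called in both comparisons of the lines below, hold CACGCG within 50 bases after their starts. Noc4l and Ncl hold neither motif in these windows.
Polr1e (chr4:45018641-45018658, plus strand): tttttgagtcCGCGTGtg
Nhp2 (chr11:51619766-51619791, plus strand): aggcggcggcCGCGTGgttcctctat
The GC-box core GGGCGG, counted on both strands and so also as CCGCCC, was searched as a common promoter motif outside the MYC network and stood in 29 of 37 genes (78.4%), against 68.1% of the genes tested. The 250 bases before the starts of Polr1e and Nhp2 are shown because these genes carry the calls, with that motif in capitals.
Polr1e (chr4:45018359-45018608, plus strand): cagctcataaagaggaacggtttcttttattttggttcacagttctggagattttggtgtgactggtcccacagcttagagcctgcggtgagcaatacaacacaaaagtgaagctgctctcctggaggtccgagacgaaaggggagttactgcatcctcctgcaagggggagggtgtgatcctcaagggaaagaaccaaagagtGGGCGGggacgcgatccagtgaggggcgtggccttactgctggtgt
Nhp2 (chr11:51619523-51619772, plus strand): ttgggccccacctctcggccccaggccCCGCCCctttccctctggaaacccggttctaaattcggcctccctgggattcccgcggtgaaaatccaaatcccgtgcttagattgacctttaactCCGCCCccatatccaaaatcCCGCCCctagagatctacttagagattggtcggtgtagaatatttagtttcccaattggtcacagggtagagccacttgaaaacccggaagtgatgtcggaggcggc
A match describes the letters of a window and nothing about binding in these cells.

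The values below are log2 intensities after background correction and quantile normalization, and a difference of 1 is a doubling on that scale. Arrays had 35.0% to 35.2% of probes detected in the lines, 38.2% to 40.8% in the thymus labelled transgenic and 39.4% to 43.0% in wild-type thymus. Lmo2 read 4.39, 4.87 and 4.34 in lines 3, 175 and 261, against 6.95, 6.22 and 5.42 in the thymus labelled transgenic and between 7.95 and 8.21 in wild-type thymus, so the probe goes against the transgenic label, and whether it reads the transgene was not tested. Xist read 12.66 and 11.37 in the first and second samples labelled transgenic, and 4.49 in the third, against 4.38 to 4.47 in wild-type thymus. Transgenic array 2 and wild-type array 1 stood apart together: of 1215 probes detected on exactly 7 arrays, 181 were missing on this pair, against 6 to 41 for the other 8 pairs of a transgenic and a wild-type array. Max and Nolc1 were among the genes concerned. Cd3e, a T-cell receptor component, read 12.33 to 12.59 in the lines, 13.22 to 13.40 in the thymus labelled transgenic and 13.24 to 13.36 in wild-type thymus. Other T lineage markers differed among the lines. Rag1 read 4.88, 10.97 and 11.23 in lines 3, 175 and 261, against 8.95 to 9.49 and 10.54 to 10.90 in these thymus groups. Thy1 read 13.15, 14.33 and 14.10 in the lines. The summed level of 7 measured T lineage markers was 28675.2 to 59330.7 in the lines, 35326.0 to 45351.5 in the thymus labelled transgenic and 50591.3 to 55666.7 in wild-type thymus. Of 7 marker lists of other cells, 4 had a lower summed level on every line than on every thymus array. These were B cells, NK cells, MHC class II cells, and macrophages and granulocytes. The other 3 (erythroid cells, thymic epithelium, and fibroblasts with endothelium) overlapped wild-type thymus. They say little, since only 2 of 4 erythroid genes and 1 of 5 genes in each of the other lists were measured. The epithelial gene, Krt8, was undetected in the lines, at 27.5 to 30.8. The summed linear level of 5 measured MHC class II genes was 134.6 to 605.6 in the lines, 1910.0 to 8492.7 in the thymus labelled transgenic and 14484.3 to 17239.7 in wild-type thymus, and 4 of the 5 (H2-Aa, H2-Eb1, Cd74 and Ciita) were undetected in the lines. The 7 macrophage markers were undetected in the lines, with sums of 164.5 to 168.7, against 3701.1 to 14220.0 in the thymus labelled transgenic and 4147.9 to 7176.3 in wild-type thymus. In bulk RNA, fewer cells of a type and less RNA per cell cannot be told apart, and the part of this cell make-up in the differences below was not tested.

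Myc was highest in line 3. It read 10.13, 8.34 and 8.29 in lines 3, 175 and 261, against 8.16, 7.00 and 7.97 in the thymus labelled transgenic and 8.89, 8.23 and 8.02 in wild-type thymus. Line 3 stood above all 6 thymus arrays, while lines 175 and 261 lay within the wild-type range and just above the highest transgenic array. The mean of the lines exceeded wild-type thymus by 0.54 ± 0.53 (log2 difference ± SE; adjusted p = 0.477, limma with Benjamini-Hochberg adjustment) and the thymus labelled transgenic by 1.21 ± 0.57 (adjusted p = 0.179), and neither passed the threshold of 0.05. Without line 3 these differences were -0.07 and 0.61. The thymus labelled transgenic minus wild-type thymus gave -0.67 ± 0.36 (adjusted p = 0.45), with overlapping groups. Mycn, the MYC relative used in many embryonic and neural tissues, was detected on 0 of the 9 arrays, with readings of 4.40 to 4.63, so it has no measured difference.

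Max, the obligate partner of MYC, read 7.98, 7.73 and 7.29 in lines 3, 175 and 261, against 7.19, 4.38 and 6.31 in the thymus labelled transgenic and 4.86, 6.94 and 6.79 in wild-type thymus. Every line stood above every thymus array, and the lowest thymus readings, both undetected, were those of the pair of arrays that stood apart. The lines exceeded wild-type thymus by 1.47 ± 0.56 (limma, adjusted p = 0.0981) and the thymus labelled transgenic by 1.71 ± 0.68 (adjusted p = 0.128), which did not pass. Without wild-type array 1 the first difference of Max was 0.80 (adjusted p = 0.0986), and without transgenic array 2 the second was 0.92 (adjusted p = 0.166). The MAX-binding repressors Mxd3 and Mxd4 did not pass in any comparison. Mxd3 read 7.69, 8.60 and 8.29 in the lines, against 6.49, 7.04 and 8.004 in the thymus labelled transgenic and 7.76, 7.42 and 7.01 in wild-type thymus, a difference from wild type of 0.80 ± 0.31. Mxd4 was lowest in line 175, at 9.72, beside 11.33 in line 3 and 11.58 in line 261, with thymus arrays between 10.75 and 12.02. The other 2 probes of Mxd4 gave lines-minus-wild-type differences of 1.29 and 1.62 where the chosen probe gave -0.66, so the direction for Mxd4 is uncertain.

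**Figure D1:**
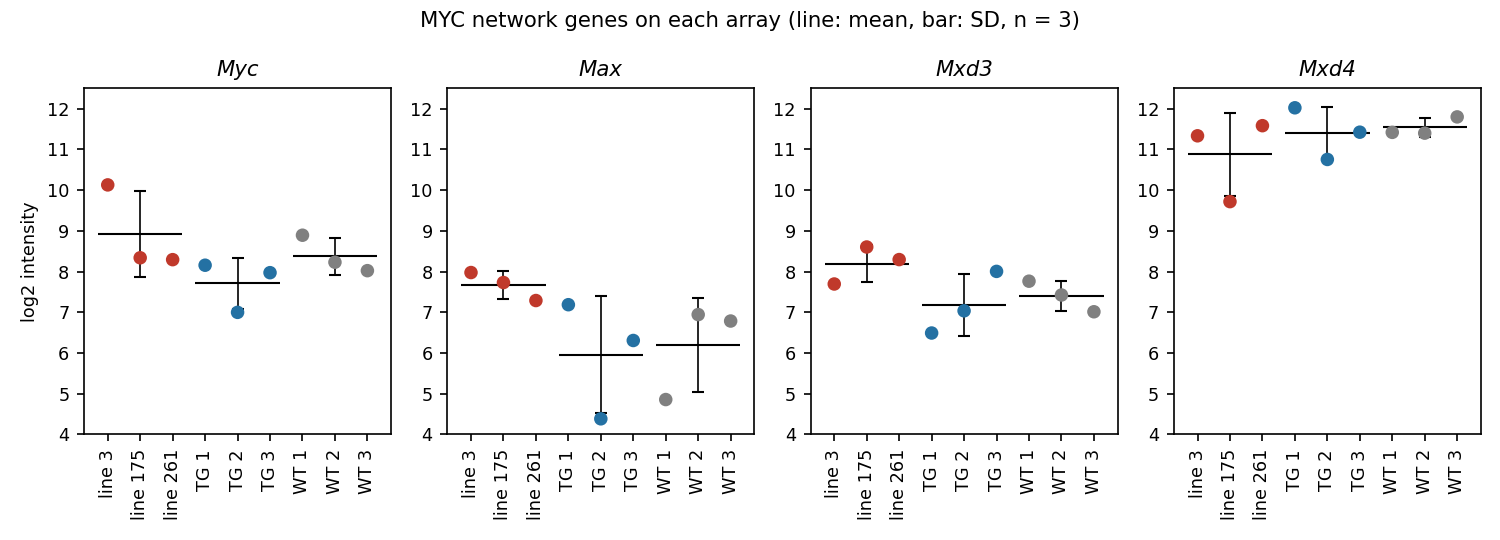
Log2 intensity (y axis) of Myc, Max, Mxd3 and Mxd4 on each of the 9 arrays, with the lines left of the thymus labelled transgenic and wild-type thymus; points are arrays, horizontal lines are group means and bars are SD (n = 3). Line 3 reads 10.13 for Myc, above all 6 thymus arrays, and Max is low on transgenic array 2 (4.38) and wild-type array 1 (4.86).

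In the lines against wild-type thymus, 3 of the 32 biogenesis genes rose and 1 fell, and 28 did not pass. Over all genes 12.1% rose and 12.4% fell, 24.5% together, and 4 of 32 lies below that share. Polr1e, a polymerase I subunit that takes part in initiation, rose to 10.40, 9.95 and 10.08 in lines 3, 175 and 261, against 9.31, 9.20 and 9.35 in wild-type thymus, a log2 difference of 0.86 ± 0.19 (1.81-fold, limma adjusted p = 0.0219). Nhp2, a core protein of the box H/ACA particles that turn uridine into pseudouridine, read 13.21, 13.00 and 12.61 in the lines against 12.30, 12.22 and 12.06 in wild-type thymus, 0.74 ± 0.22 higher (1.67-fold, adjusted p = 0.0471). Noc4l, a small-subunit assembly factor, read 10.60, 10.43 and 10.17 in the lines against 9.61, 9.84 and 9.74 in wild-type thymus, 0.67 ± 0.19 higher (1.59-fold, adjusted p = 0.0465). In all 3 genes every line stood above every wild-type array.

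Ncl moved the other way. This gene encodes nucleolin, an abundant nucleolar protein of ribosomal RNA transcription and processing. Ncl read 10.39, 10.39 and 10.30 in lines 3, 175 and 261, against 10.89, 11.19 and 11.18 in wild-type thymus, a difference of -0.73 ± 0.18 (limma adjusted p = 0.028). All 3 lines lay below all 3 wild-type arrays and within 0.09 of each other. The thymus labelled transgenic read 10.34, 9.94 and 10.66 for Ncl, so the lines and that thymus overlapped (0.05 ± 0.25, adjusted p = 0.907).

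These calls against wild-type thymus were lost without single arrays. Over all genes, 24.5% were called in the reported fit, and 15.7%, 11.5% and 9.66% without wild-type array 1, 2 or 3. Without line 3, 175 or 261 the share was 29.6%, 19.3% and 22.2%. Leaving out any 1 wild-type array ended the calls of Polr1e, Nhp2 and Noc4l, and leaving out wild-type array 2 or 3, line 175 or line 261 ended that of Ncl; leaving out line 3 or line 175 also ended those of Nhp2 and Noc4l. The adjusted p of the lost calls was 0.0561 to 0.0848 for Polr1e, 0.0792 to 0.164 for Nhp2, 0.0801 to 0.144 for Noc4l and 0.0548 to 0.117 for Ncl. Scaling arrays to their medians in place of quantile normalization gave -0.10 for Ncl (limma adjusted p = 0.692). Under it 12 of the 32 genes rose and 0 fell, while 2397 of all 10072 genes rose and 1031 fell (34.0% together). The share of the 32 that rose was then above that of all genes. In the reported fit 1219 of all genes rose and 1250 fell.

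The other 28 genes were spread on both sides of 0. Among all 32, 20 lay above 0 (54.3% of all genes did) and 12 below, while median scaling, which moved the median of all genes to 0.33, put 28 above 0; in the reported fit the median was 0.157, beside 0.083 over all genes. For 7 of the 32 (21.9%) every line stood above every wild-type array, against 24.6% of all genes, and for 1 every line stood below, against 21.6%. The 7 were Polr1e, Nhp2, Noc4l, Nop58, Npm1, Wdr43 and Nme1. Wdr43, of the complex that starts small-subunit processing, came nearest the threshold among the uncalled (0.72 ± 0.24, adjusted p = 0.0714).

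By role, the small-subunit genes had the highest median against wild-type thymus, 0.61 over 5 genes. Utp4, of the same early processing complex as Wdr43, gave 0.61 ± 0.26, while Rrp12, for subunit export, gave -0.47 ± 0.29 (0.13 under median scaling) and Tsr1, for late maturation, 0.14 ± 0.35. The 6 box C/D and nucleolar genes had a median of 0.38: the particle cores Nop56 and Nop58 gave 0.43 ± 0.22 and 0.42 ± 0.18, the chaperone Npm1 gave 0.34 ± 0.17 and Rrp9, which binds the U3 RNA, gave 0.01 ± 0.37. The 9 large-subunit genes lay lower, with a median of -0.20 (0.607 under median scaling). This median depends on the chosen probes, since other probes of Ddx21, Ppan and Mybbp1a lay above 0 (values below). Gnl3 (nucleostemin) gave 0.94 ± 0.43, Wdr74 0.49 ± 0.27 and Nop2, a ribosomal RNA methyltransferase, 0.48 ± 0.25, while Pes1, a partner of Bop1, gave -0.56 ± 0.32, Rrs1, which helps load a small ribosomal RNA, -0.58 ± 0.35, and the helicase Ddx21 -0.57 ± 0.30 (0.10 under median scaling). The 6 polymerase I genes had a median of -0.02 (0.508 under median scaling), with Polr1e apart from the large catalytic subunits Polr1a (0.08 ± 0.16) and Polr1b (-0.61 ± 0.34). The 4 metabolic targets had a median of 0.35, with Odc1, Srm and the kinase Nme1 above 0 and Cad, which starts pyrimidine synthesis, at -0.03 ± 0.47 (0.42 under median scaling and 0.44 without wild-type array 1).

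In the lines against the thymus labelled transgenic, more of the genes lay above 0. Polr1e and Nhp2 rose, 2 of 32 (6.25%) where 7.23% of all genes rose, and 0 fell where 8.45% of all genes did (15.7% of all genes were called). At an unadjusted p under 0.05 there were 13 of the 32 (40.6%), against 35.0% of all genes. Polr1e read 10.40, 9.95 and 10.08 in lines 3, 175 and 261, against 9.13, 8.80 and 9.24 in the thymus labelled transgenic, 1.09 ± 0.24 higher (limma adjusted p = 0.0286). Nhp2 read 13.21, 13.00 and 12.61 in the lines, against 11.94, 11.92 and 11.91 in the thymus labelled transgenic, 1.02 ± 0.23 higher (adjusted p = 0.0316). Neither gene's groups overlapped. Leaving out any 1 of the 6 arrays ended the call of Polr1e (limma adjusted p 0.0556 to 0.0854). Leaving out any but line 261 ended that of Nhp2 (limma adjusted p 0.0635 to 0.0982). Over all genes, leaving out 1 array gave 4.41% to 14.5% called, against 15.7% in the reported fit. Under median scaling 13 of the 32 rose and 0 fell, while 1424 of all 10072 genes rose and 724 fell (21.3% together). The share of the 32 that rose was then above that of all genes. In the reported fit 728 of all genes rose and 851 fell. With all 9 arrays in one fit 11 of the 32 rose, where 27.7% of all genes were called in either direction, against 15.7% in the reported fit.

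Of the 32 genes, 28 lay above 0 in this comparison, against 53.0% of all genes, with a median of 0.458, beside 0.057 over all genes. For 15 of the 32 (46.9%) every line stood above every array labelled transgenic, against 22.1% of all genes, and for 0 every line stood below, against 20.3%. They were Polr1e and Polr1a for the polymerase, Nop56, Nop58, Npm1 and Nhp2 for the nucleolar particles, Utp4, Wdr43 and Noc4l for the small subunit, Wdr74, Nop2 and Gnl3 for the large subunit, and Odc1, Srm and Nme1 among the metabolic targets. The other kept probes of Polr1a gave -1.01, 0.65 and 0.81 in this comparison. On the first of these, every line stood below every array labelled transgenic. The 4 genes below 0 were Rrn3 at -0.04, Pes1 at -0.23, Rrs1 at -0.41 and Ddx21 at -0.41; under median scaling Rrn3 (0.18) and Ddx21 (0.08) lay above 0.

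The polyamine genes were close to the threshold against the thymus labelled transgenic. Odc1, the rate-limiting enzyme of polyamine synthesis, read 12.38, 12.40 and 11.69 in lines 3, 175 and 261, against 11.25, 10.71 and 11.32 in the thymus labelled transgenic and 11.68, 11.95 and 11.81 in wild-type thymus. The lines were higher by 1.06 ± 0.30 over the thymus labelled transgenic (limma adjusted p = 0.0557) and by 0.35 ± 0.25 over wild-type thymus (adjusted p = 0.329). Srm, the spermidine synthase, read 12.10, 12.15 and 11.28 in the lines, against 10.72, 11.16 and 10.65 in the thymus labelled transgenic and 11.51, 11.60 and 11.24 in wild-type thymus. Its difference was 1.00 ± 0.31 over the thymus labelled transgenic (adjusted p = 0.0727) and 0.39 ± 0.28 over wild-type thymus. Line 261 was the lowest line for both genes and lay within the wild-type range.

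Gnl3 had the largest estimate of the 32 against the thymus labelled transgenic, 1.81 ± 0.56 (limma adjusted p = 0.0723). It read 9.97, 10.29 and 8.63 in lines 3, 175 and 261, against 8.20, 6.89 and 8.39 in the thymus labelled transgenic and 8.53, 8.66 and 8.88 in wild-type thymus. Its lowest reading was that of transgenic array 2. Nop58 (0.82 ± 0.24, adjusted p = 0.0639), Noc4l (1.00 ± 0.32, 0.0751), Nop2 (0.84 ± 0.28, 0.0842) and Wdr43 (1.07 ± 0.36, 0.0857) followed.

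In the thymus labelled transgenic against wild-type thymus, 0 of the 32 genes passed limma's test in either direction, while 2.29% of all genes rose and 2.38% fell (4.68% together), and 6 of the 32 (18.8%) had an unadjusted p under 0.05, against 16.2% of all genes. The estimates lay mostly on one side: 31 of 32 were below 0, or 28 of 32 under median scaling (49.5% of all genes were in the reported fit), with a median of -0.34, beside 0.005 over all genes. The exception was Tsr1, at 0.14 ± 0.25. For 13 of the 32 (40.6%) every array labelled transgenic lay below every wild-type array, against 11.1% of all genes, and for 0 every one lay above, against 11.2%. These 13 were Polr1a, Polr1b, Ncl, Gar1, Nhp2, Rrp12, Wdr74, Ppan, Gnl3, Mybbp1a, Odc1, Srm and Nme1.

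Polr1b, which encodes the second-largest subunit of the polymerase, had the lowest adjusted p (0.0543, limma). It read 8.92, 8.97 and 8.86 in the thymus labelled transgenic, against 9.65, 9.75 and 9.54 in wild-type thymus, a difference of -0.73 ± 0.16 with no overlap. The lines spanned that gap for Polr1b, at 9.69, 9.07 and 8.34 in lines 3, 175 and 261. Ncl (-0.77 ± 0.23, adjusted p = 0.13), Odc1 (-0.72 ± 0.22, 0.138), Rrp12 (-0.52 ± 0.17, 0.19) and Srm (-0.61 ± 0.21, 0.201) had the next lowest adjusted p-values. By role the medians were -0.30 for polymerase I, -0.38 for box C/D, -0.29 for box H/ACA, -0.34 for the small subunit, -0.33 for the large subunit and -0.60 for the metabolic targets, all below 0.

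The shift was present on each array labelled transgenic. The median of the 32 genes relative to the wild-type mean was -0.256, -0.398 and -0.204 on its 3 arrays, against -0.049, 0.068 and -0.019 on the wild-type arrays. The third array, which lacks the high Xist reading, was -0.204, and the median difference was -0.257 with transgenic array 2 and wild-type array 1 both left out. The comparisons share arrays: the thymus labelled transgenic stands in both of its comparisons, so lower readings there enter both the lines-minus-transgenic and the transgenic-minus-wild-type differences.

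**Figure D2:**
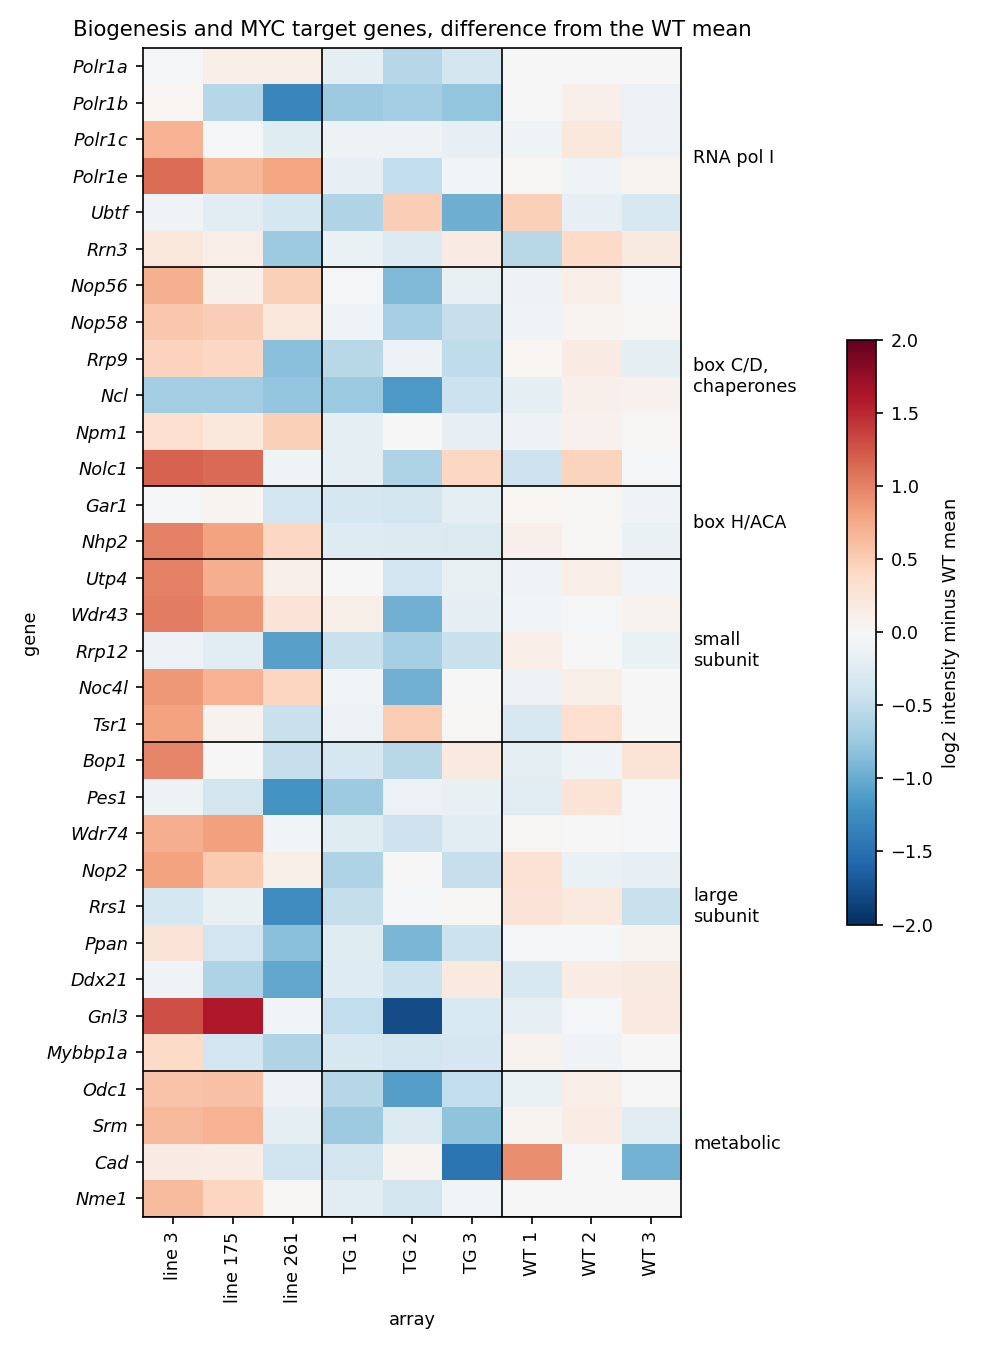
Log2 intensity of the 32 biogenesis genes (rows, grouped by role) on the 9 arrays (columns, lines first), each relative to its own wild-type mean; colour gives the log2 difference. The 3 arrays labelled transgenic are mostly below the wild-type mean (array medians -0.256, -0.398 and -0.204) and line 3 is mostly above it (median 0.555).

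**Figure D3:**
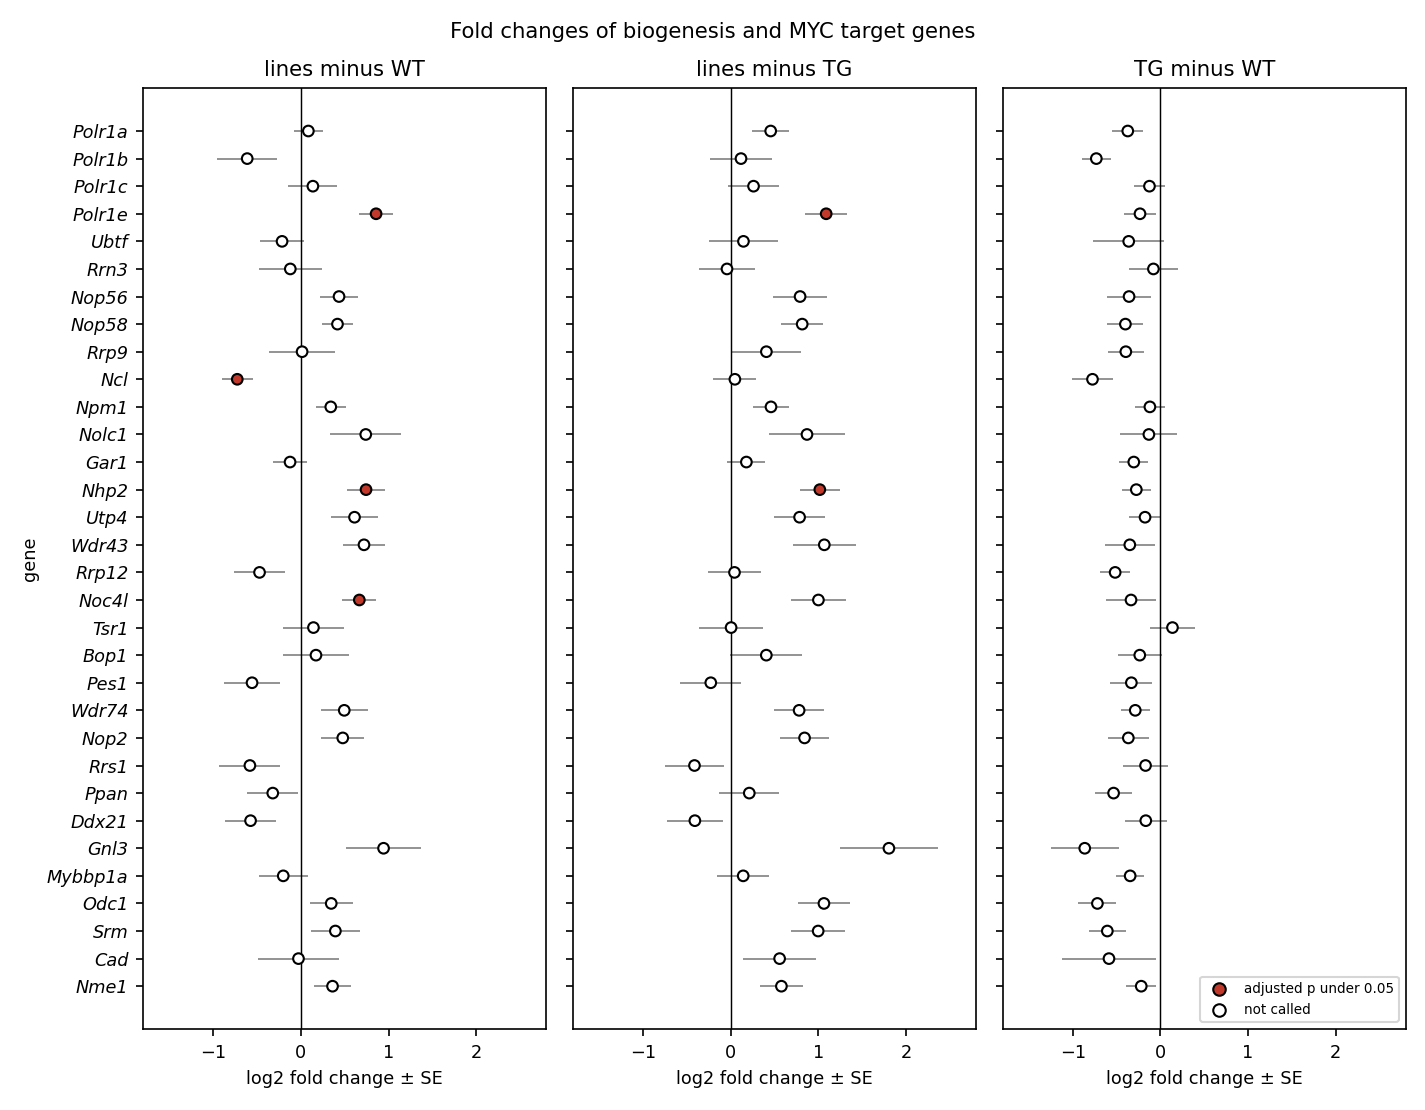
Log2 difference (x axis, with its standard error) of each of the 32 biogenesis genes in the 3 comparisons, ordered by role; filled points passed an adjusted p of 0.05. Polr1e and Nhp2 pass in both comparisons of the lines, Noc4l and Ncl pass against wild-type thymus, and no gene passes between the thymus groups (TG minus WT).

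The lines differed among themselves. Line 3 stood above all 6 thymus arrays for 21 of the 32 genes (65.6%, against 33.0% of all genes), line 175 for 17 (53.1%, against 34.0%) and line 261 for 9 (28.1%, against 32.3%). Line 3 stood below all 6 for 0 genes (27.4% of all genes), line 175 for 2 (29.8%) and line 261 for 11 (34.4%, against 28.2%). The median of the 32 relative to the wild-type mean was 0.555 in line 3, 0.142 in line 175 and -0.211 in line 261 (0.223 under median scaling, where the median of all genes was 0.269), while the medians over all genes were 0.075, 0.069 and 0.065. Each line is 1 array, so these are descriptions with no test.

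Line 3, which had the highest Myc, was the highest line for 24 of the 32 genes (75.0%, against 34.7% of all genes), and line 261 was the lowest for 28 (87.5%, against 33.6%). The gap between lines 3 and 261 was widest for Bop1, of the complex that processes large-subunit RNA (11.07 and 9.63), Polr1b (9.69 and 8.34), Gnl3 (9.97 and 8.63), Rrp9 (9.87 and 8.56) and the nucleolar chaperone Nolc1 (6.65 and 5.37). Polr1a, at 10.97, 11.13 and 11.13 in lines 3, 175 and 261, and Ncl were nearly level. Myc itself read 8.34 and 8.29 in lines 175 and 261, and their biogenesis medians were 0.142 and -0.211. Whether the level of Myc goes with that of these genes was not tested. Under median scaling, line 3 was highest for 19 genes (32.1% of all genes) and line 261 lowest for 29 (42.3% of all genes). The medians were then 1.039, 0.864 and 0.223 for lines 3, 175 and 261, beside 0.323, 0.376 and 0.269 over all genes.

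The spread of these genes was wider among the lines than in the thymus groups. The median range over 3 arrays was 0.873 for the 32 genes in the lines (0.621 over all genes), 0.555 in the thymus labelled transgenic (0.602) and 0.268 in wild-type thymus (0.398). The median of 10 proliferation genes relative to the wild-type mean was -0.147, 0.211 and 0.247 in lines 3, 175 and 261, each 1 array. The part of proliferation in the differences between the lines was not tested.

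**Figure D4:**
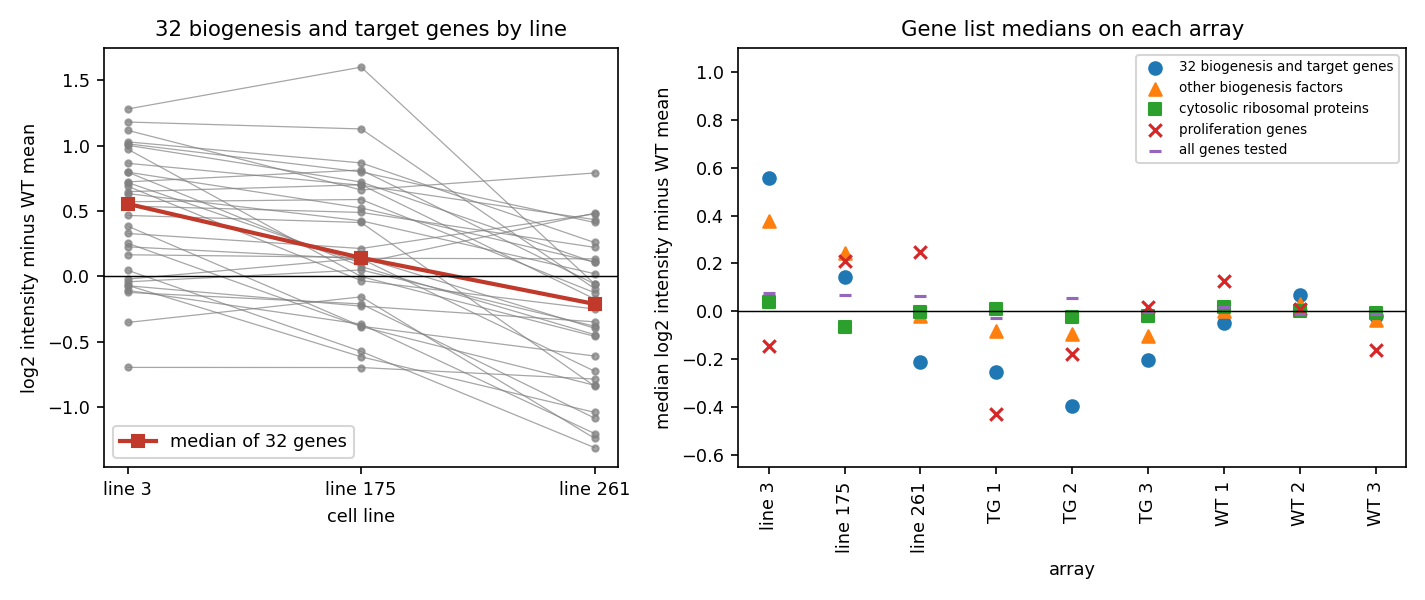
Left, log2 intensity minus the wild-type mean (y axis) in lines 3, 175 and 261, with a grey line for each of the 32 genes and their median in red; right, the median of 5 gene lists on each of the 9 arrays (TG, thymus labelled transgenic). The median of the 32 genes is 0.555, 0.142 and -0.211 in lines 3, 175 and 261, while that of all genes is 0.065 to 0.075. Under median scaling (not drawn), line 261 gives 0.223, beside 0.269 over all genes.

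Further genes of the pathway were counted on lists of their own. Over all genes 12.1% rose and 12.4% fell against wild-type thymus, and 7.23% rose and 8.45% fell against the thymus labelled transgenic, and the counts of each list stand beside those shares. Under median scaling, 2397 of all 10072 genes rose and 1031 fell against wild-type thymus, and 1424 rose and 724 fell against the thymus labelled transgenic. Of 8 other MYC network genes, 1 rose and 3 fell in the lines against wild-type thymus: Mlx, a MAX-like partner, gave 1.12 ± 0.26 (limma adjusted p = 0.0257) and its glucose-sensing partner Mlxip -1.24 ± 0.24 (adjusted p = 0.0124). Of 14 MYC cofactors and regulators, 1 rose and 3 fell, or 4 rose and 2 fell under median scaling, in either comparison of the lines. In the reported fit the kinase Aurka rose by 0.89 ± 0.22, while Huwe1, a ubiquitin ligase, gave -1.48 ± 0.30, and Trrap and Ep400, of a chromatin complex recruited by MYC, gave -0.94 ± 0.24 and -0.81 ± 0.23. These 4 cofactors also passed, in the same direction, against the thymus labelled transgenic, at 0.97 ± 0.23 for Aurka, -1.60 ± 0.30 for Huwe1, -0.96 ± 0.21 for Trrap and -0.99 ± 0.25 for Ep400.

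Polr1d, a small polymerase subunit, was the 1 of 7 other polymerase I genes that rose, by 0.75 ± 0.17 over wild-type thymus (limma adjusted p = 0.0216) and 1.01 ± 0.19 over the thymus labelled transgenic (adjusted p = 0.0187). Of 71 other biogenesis genes, 5 rose (7.04%, against 12.1% of all genes) and 1 fell against wild-type thymus, and 2 rose (2.82%, against 7.23%) and 0 fell against the thymus labelled transgenic. Under median scaling 27 and 15 of the 71 rose and 0 fell, where 2397 and 1424 of all 10072 genes rose. Both shares of the 71 that rose were then above those of all genes. The processing factors Nol11 (1.04 ± 0.25), Las1l (0.98 ± 0.23) and Pelp1 (0.90 ± 0.22) rose and the large remodelling ATPase Mdn1 (-0.91 ± 0.23) fell against wild-type thymus, and Nop9 (1.24 ± 0.29) and Ebna1bp2 (0.97 ± 0.22) rose against the thymus labelled transgenic. The medians of these 71 were 0.206 in the lines minus wild-type thymus, 0.309 in the lines minus the thymus labelled transgenic and -0.115 between the thymus groups, where 56 of 71 lay below 0 (33 under median scaling, median 0.021) and 0 passed.

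Of 54 measured genes for the ribosomal proteins themselves, 2 rose and 4 fell against wild-type thymus, where 12.1% and 12.4% of all genes did. Under median scaling 14 rose and 1 fell, where 2397 of all 10072 genes rose and 1031 fell. They had medians of 0.045, -0.005 and -0.018 in the lines minus wild-type thymus, the lines minus the thymus labelled transgenic and the thymus labelled transgenic minus wild-type thymus, beside 0.083, 0.057 and 0.005 over all genes. Under median scaling the first 2 medians were 0.081 and -0.01, beside 0.33 and 0.259 over all genes. Rpl37 (-0.87 ± 0.17), Rps24 (-0.68 ± 0.17) and Rps4l (-0.99 ± 0.23) fell against wild-type thymus, and Rpsa (1.01 ± 0.21) rose. Rps4l and Rpsa read low, with means of 4.41 and 5.70 in the lines and 5.40 and 4.70 in wild-type thymus. The 1 ribosomal protein gene called between the thymus groups was Rpl3l, a muscle paralog of Rpl3, at 5.17 ± 0.34 (limma adjusted p = 0.000726).

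Of 24 other MYC targets, 4 rose and 1 fell against wild-type thymus, and 4 rose and 0 fell against the thymus labelled transgenic. The risen genes were 16.7% of the list in each comparison, against 12.1% and 7.23% of all genes. Under median scaling 11 and 10 rose, where 2397 and 1424 of all 10072 genes did. The mitochondrial one-carbon enzymes Shmt2 and Mthfd2 rose in both: Shmt2 by 1.35 ± 0.27 over wild-type thymus (limma adjusted p = 0.0151) and 1.98 ± 0.28 over the thymus labelled transgenic (adjusted p = 0.00825), and Mthfd2 by 1.39 ± 0.29 (0.0164) and 1.52 ± 0.33 (0.0296). C1qbp, a mitochondrial matrix protein, rose by 0.88 ± 0.24 and 1.86 ± 0.45. The medians of the 24 were 0.289, 0.478 and -0.319 in the same 3 comparisons, beside 0.083, 0.057 and 0.005 over all genes.

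For 13 members more than 1 probe was kept, and all probes of a gene lay on one side of 0 for 7 of them in the lines minus wild-type thymus, 9 in the lines minus the thymus labelled transgenic and 8 between the thymus groups. The second probes of the called genes kept their directions: Nhp2 gave 1.45 and 1.22, Noc4l 0.65 and 0.82, and Ncl -1.02 and -0.29, in the lines minus wild-type thymus and minus the thymus labelled transgenic. For Ncl the chosen probe gave 0.05 in the second of these. Polr1e had 1 kept probe. Gar1 differed between probes, at 1.98 and -0.12 against wild-type thymus, but its second probe was undetected on wild-type array 1 (4.83, beside 8.75 and 8.49 on the other wild-type arrays) and gave 0.72 without it. The probes of Polr1a lay at -0.97, 0.62, 0.39 and 0.08. Against wild-type thymus the second probe gave 0.30 for Ddx21 (chosen probe -0.57) and 0.61 for Ppan (chosen probe -0.32). The other probes of Mybbp1a gave 0.08, 0.85 and 1.70 (chosen probe -0.20). Without wild-type array 1, Ddx21 gave -0.07 and Mybbp1a 0.49, 1.09 and 0.85 on these probes. All probes of Nop2 lay above 0. With the mean over probes, 23 of the 32 genes lay above 0, with a median of 0.343, beside 0.12 over all genes. The 7 unmeasured biogenesis genes were Fbl and Ddx18, for which no probe was named, and Dkc1, Utp20, Nop16, Bysl and Wdr12, whose probes were detected on fewer than 3 arrays.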

How the data were processed

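Unscaled probe intensities and detection p-values deposited by the authors, whose processing notes name BeadStudio and limma without their roles, were read for 9 arrays and 45281 probes; the lowest intensity was 86. The authors also deposited a table of log2 values, with no settings recorded in the labels or headers. The deposited intensities were corrected and quantile normalized with neqc (limma 3.58.1, R 4.3.3, offset 16). Probes with a detection p-value under 0.05 on at least 3 arrays were kept (19490); 3199 of them had no single gene symbol in the platform annotation. The probe with the highest mean stood for each of 10072 genes. Each pair of groups was fitted with limma on its own 6 arrays and p-values were adjusted by Benjamini-Hochberg over all genes, with calls at 0.05. The scripts were tested on simulated data. A simulated log2 change of 1 was called for 28% of changed genes in the lines against wild-type thymus. That share was 10% in the lines against the thymus labelled transgenic and 28% between the thymus groups. A gene that did not pass may therefore still differ by that much. Alternatives covered the authors' table, background, offset, scaling, filter, probe choice, a joint fit, array weights, a replicate block and leaving out arrays. With 3 arrays a group, their number limits the precision. The 44 members and the other lists were chosen with earlier results of these data known. Named genes were the members plus some, not all, of the called genes of each other list with the smallest p-values. Numbers shared between groups did not pair the samples. Promoter windows came from RefSeq (GRCm38.p6).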

Additional observations from a re-analysis of the deposited data

How the results depend on the processing

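No member changed sign while called. Counts are of the 32 biogenesis genes unless all genes are named. In the lines against wild-type thymus, 3 rose in the reported fit, 1 with the authors' log2 table, 12 under median scaling, and 0 with the replicate block or with both arrays that stood apart left out (an alternative chosen after seeing the data); 1 fell, and 0 fell under median scaling or the replicate block. The median was 0.643 under median scaling, where the median over all genes moved to 0.33. Of all genes tested, 24.5% were called in either direction, 24.1% with the authors' table and 34.0% under median scaling. The share was 13.2% of 19057 with no detection filter and 22.4% of 6895 when detected on all 9 arrays. It was 13.9% with the replicate block and 15.7% with both arrays left out. Leaving out 1 array at a time gave 0 to 8 risen, 0 to 2 fallen, medians of 0.006 to 0.423 and 9.66% to 29.6% of genes called. The 8 came without line 261, where 22.2% of all genes were called in either direction.

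In the lines against the thymus labelled transgenic, 2 rose in the reported fit, 4 with no background correction, an offset of 50 or array weights, 5 with the mean over probes, 11 with all 9 arrays in one fit, 13 under median scaling, and 0 with the replicate block or with both arrays left out. The median was 0.819 under median scaling, with 0.259 over all genes. Of all genes tested, 15.7% were called in either direction, 15.8% with no background correction, 15.7% with an offset of 50 and 19.9% with array weights. The share was 16.1% with the mean over probes, 27.7% in one fit and 21.3% under median scaling. It was 7.93% with no filter, 6.46% with the replicate block and 7.91% with both arrays left out. Leaving out 1 array gave 0 to 5 risen, medians of 0.45 to 0.732 and 4.41% to 14.5% of genes called. The 5 came without line 261, where 9.19% of all genes were called in either direction.

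Between the thymus groups, Polr1b alone, 1 gene, fell with no detection filter, with array weights, with an offset of 50 or without background correction. The median was -0.192 under median scaling, where 28 of 32 lay below 0, and -0.257 with both arrays left out. Of all genes tested, 4.68% were called in either direction, 1.95% with no filter and 1.44% when detected on all 9 arrays. The share was 6.34% with array weights, 4.51% with an offset of 50 and 4.08% without background correction. It was 2.98% in one fit, 2.91% with the replicate block and 2.79% with both arrays left out. Leaving out 1 array gave 0 risen, 0 fallen, medians of -0.352 to -0.269 and 1.53% to 5.45% of genes called. Same-numbered samples correlated at -0.15 to 0.16 in their deviations, so the paired fit is given only here. Max, Nolc1 and Rrs1 have no value under the filter on all 9 arrays. The causes of these differences were not tested.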
